A study of Homo sapiens with 16 samples.

Results

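Knockdown of YAP1 was examined in A431 cells, an established human epidermoid carcinoma line known for its amplified EGFR gene. The experiment comprised 4 of the 16 RNA-seq libraries of the series, picked by their labelled cell line and siRNA and not by any measured value: 3 from cells given siRNA against YAP1 (siYAP) and 1 from cells given a control siRNA (siCTRL). Cells received siRNA on 2 occasions 24 h apart in serum-containing medium, and RNA was taken 48 h after the second. The siRNAs were commercial pools of several sequences per target, so that no result here can be assigned to a single siRNA sequence.

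YAP1 encodes YAP, a transcriptional co-activator that the Hippo kinases LATS1 and LATS2 hold in the cytoplasm by phosphorylation. In the nucleus YAP and its relative TAZ (WWTR1) bind TEAD factors and raise the transcription of genes such as CTGF and CYR61. In stratified epithelium this pathway is known for supporting the proliferation of basal layer cells, where integrins anchor the cells to the basement membrane.

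Other groups were used for comparison only. These were 1 A431 library with an empty expression vector and 3 with the constitutively active mutant YAP5SA, all without siRNA, and 1 siCTRL and 3 siYAP libraries of HaCaT, an immortalised keratinocyte line. The study's methods speak of biological triplicates and the labels say that controls were not replicated, so that the spread between control cultures was not measured and a p value rests on the spread within the treated triplicates. The empty vector library differs from siCTRL in the agent as well as in the culture, and these 2 sources of difference cannot be told apart.

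The siCTRL library held 20393720 estimated read pairs on genes and the siYAP libraries 19423531 to 46791673. Log levels correlated at 0.993 to 0.994 between siYAP libraries and at 0.979 to 0.983 between each of them and siCTRL. Levels are given as CPM, counts scaled to the library total, after TMM scaling, which evens out library composition. All 9 keratinocyte and squamous markers were measured, with a summed level of 4110 CPM with siCTRL and 4520 to 5300 CPM with siYAP, and EGFR had 1032 CPM in siCTRL and 1358, 1085 and 1337 CPM after siYAP. Of 5 fibroblast markers only COL1A1 could be tested, at no more than 2.80 CPM, and of 4 leukocyte markers only CD14, at no more than 3.62 CPM. The endothelial cadherin gene CDH5 had 31.1 CPM in siCTRL and 15.8, 18.9 and 18.1 CPM across the siYAP triplicate, with 2.43 CPM in the empty vector library, and its difference with siYAP did not pass the test.

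YAP1 itself was the check of the labels. It stood at 94.3 CPM with siCTRL and at 5.34, 7.0 and 5.04 CPM after siYAP, or 5.79 ± 1.05 CPM (SD, n = 3). The siYAP libraries lay below every other A431 library, the empty vector one (124 CPM) included. The log2 fold change was -4.02 (SE 0.46, edgeR quasi-likelihood FDR = 0.000761, Benjamini-Hochberg over all genes tested). WWTR1, which encodes TAZ, had 174 CPM in siCTRL and 155, 154 and 160.2 CPM across the siYAP triplicate, which is -0.16 on the log2 scale (SE 0.15, edgeR FDR = 0.6). All 3 siYAP libraries lay below siCTRL for TAZ, but the empty vector library lay lower still, at 138 CPM.

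A gene is said here to have been called, or to have fallen or risen, at an edgeR FDR under 0.05 with a mean logCPM above 1. Of the 14673 genes tested, 555 (3.78%) fell with siYAP and 266 (1.81%) rose. Each called gene lay on the same side of siCTRL in all 3 siYAP libraries. That pattern by itself was common, with 5121 genes (34.9%) lower in all 3 and 5492 (37.4%) higher in all 3. Counts in the gene lists below are to be read beside these shares of called genes and of genes on one side. At such shares of calls a short list can hold no call without differing from the rest. The median log2 fold change over all genes tested was 0.03. Falls of at least 1 on the log2 scale were seen for 167 of the called genes, and rises of that size for 136. With 3 libraries against 1, p = 0.25 is the smallest value an exact permutation test can give, so every call depends on the fit across all genes. In bulk RNA, fewer cells of a kind and less RNA per cell cannot be told apart.

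The number of calls depended on single libraries. Without siYAP replicate 1, 311 genes fell and 122 rose, without replicate 2 these were 385 and 157, and without replicate 3 they were 241 and 90. Of the 91 called genes that were picked for naming by rule, 47 were called whichever siYAP library was left out. The other 44 lost the call without at least 1 library, among them E2F1, E2F2, CCNE2, RRM2, LATS2, ITGB4, ITGB5 and KRT14. The empty vector library offered a second view of the single control. All 3 siYAP libraries lay below it as well as below siCTRL for 501 of the 555 genes that fell (90.3%), against 59.9% of all genes that were lower in all 3. For the 266 that rose the siYAP libraries lay above both controls for 190 (71.4%, against 59.2%). All 4 A431 libraries without siRNA also lay above siCTRL for 195 of the 266 (73.3%, against 43.2% of all genes higher in all 3), so that most rises went with a low siCTRL value. They lay below siCTRL for 239 of the 555 falls (43.1%, against 41.0%). Genes whose siYAP values did not clear the second control are named as such with their results.

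**Figure D1:**
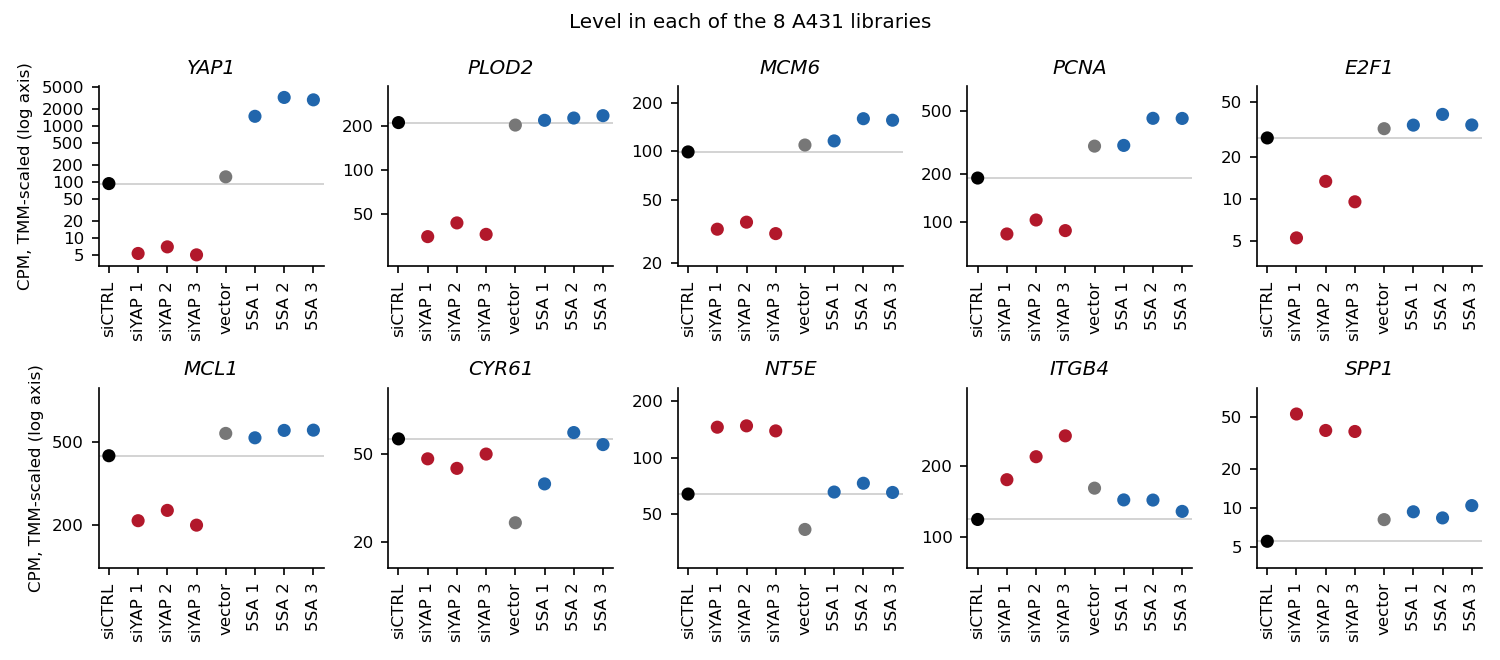
Level of 10 genes in each of the 8 A431 libraries, in TMM-scaled CPM on a log axis, with siCTRL in black, siYAP in red, empty vector in grey and YAP5SA (5SA) in blue, 1 point per library and the grey line at the siCTRL level. YAP1, PLOD2, MCM6, PCNA, E2F1 and MCL1 lie lower in all 3 siYAP libraries than in the other 5, NT5E, ITGB4 and SPP1 lie higher, and CYR61 lies between the siCTRL and the empty vector level.

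The DNA replication machinery held the most called genes of any list. Of its 45 genes 25 fell and none rose, and 39 were lower in all 3 siYAP libraries. Over all genes tested 3.78% fell and 34.9% were lower in all 3. The median log2 fold change of the list was -0.88, against 0.03 for all genes tested. All 25 also lay below the empty vector library in every siYAP library, and with the empty vector in place of siCTRL 37 of the 45 were called lower. Without replicate 1, 2 or 3 the count was 19, 22 or 13.

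The falls spanned the assembly of the helicase, its activation and the fork. Among the helicase genes, MCM6 had 99.2 CPM in siCTRL and 32.7, 36.1 and 30.7 CPM after siYAP, which is -1.58 on the log2 scale (SE 0.21, edgeR FDR = 0.00172). MCM3, of the same hexamer, had 172 CPM against 40.1, 75.2 and 60.1 CPM (log2 fold change -1.56, SE 0.32, edgeR FDR = 0.015). The hexamer did not pass as a whole: MCM4 and MCM7 also fell, by 1.12 and 1.0 on the log2 scale, whereas MCM2 and MCM5 had log2 fold changes of -0.85 and -1.03 and missed the threshold.

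Genes that switch the helicase on also fell. MCM10, which recruits the polymerases, had 42.2 CPM in siCTRL and 8.74, 13.9 and 11.9 CPM across the siYAP triplicate (log2 fold change -1.88, SE 0.36, edgeR FDR = 0.0104). CDC45, a helicase co-factor, had 30.9 CPM against 6.45, 12.3 and 7.89 CPM (log2 fold change -1.80, SE 0.35, edgeR FDR = 0.0117). In both genes replicate 1 was the lowest and replicate 2 the highest of the treated libraries. The GINS subunits GINS2, GINS4 and GINS1, which complete the active helicase, fell by 1.55, 1.36 and 0.71 on the log2 scale.

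At the fork, PCNA, the sliding clamp that holds polymerases on DNA, had 189 CPM in siCTRL and 83.8, 103 and 88.0 CPM after siYAP (log2 fold change -1.05, SE 0.19, edgeR FDR = 0.00936). The empty vector library held 300.5 CPM of PCNA, so the siYAP libraries lay below both controls. The polymerase subunits POLE2, POLA1, POLE and POLD3 fell, as did the primase PRIM1, the flap nuclease FEN1, the clamp loaders RFC2, RFC3 and RFC5 and the fork protection genes CLSPN and TIMELESS. The siYAP values of 6 of the 45 genes lay on both sides of siCTRL, among them those of the licensing factor CDT1, the polymerase subunits POLD1 and POLD2 and the kinase regulator DBF4.

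The promoters of the replication genes were read for letters that the E2F factors are known to bind, because E2F drives these genes at the entry to S phase. Sequences from RefSeq (GRCh38.p14), from 250 bases before to 50 after the start of the gene, matched 11365 tested genes. TTTCCCGC or TTTGGCGC, on either strand, occurred in 15 of 39 matched promoters of the replication list (38.5%), against 3.6% of all matched promoters, 8.42% of those of genes that fell and 3.20% of those of genes that rose. Over all 27305 promoters of the reference the shares were 1.66% for TTTCCCGC and 0.659% for TTTGGCGC. Among replication genes that fell, 11 of 22 matched promoters held either form. The 4 promoters that follow were picked from those that held one and belong to strongly lowered replication genes. MCM10 and CDC45, which fell further, are not among them. The matched letters are in capitals, and all 4 promoters lie on the minus strand of GRCh38.
MCM6 (chr2:135876394-135876693): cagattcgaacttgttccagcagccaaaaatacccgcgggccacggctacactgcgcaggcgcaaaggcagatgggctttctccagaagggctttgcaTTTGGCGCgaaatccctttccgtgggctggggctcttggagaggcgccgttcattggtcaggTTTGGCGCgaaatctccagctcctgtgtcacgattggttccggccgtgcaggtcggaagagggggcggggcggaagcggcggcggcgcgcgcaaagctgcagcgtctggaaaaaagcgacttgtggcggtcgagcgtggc
MCM3 (chr6:52284693-52284992): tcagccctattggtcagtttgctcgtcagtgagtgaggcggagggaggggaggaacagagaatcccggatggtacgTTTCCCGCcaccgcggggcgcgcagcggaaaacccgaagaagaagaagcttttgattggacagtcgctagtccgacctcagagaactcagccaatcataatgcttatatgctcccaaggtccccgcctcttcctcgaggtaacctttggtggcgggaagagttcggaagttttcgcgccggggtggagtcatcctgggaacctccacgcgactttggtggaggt
POLE2 (chr14:49688165-49688464): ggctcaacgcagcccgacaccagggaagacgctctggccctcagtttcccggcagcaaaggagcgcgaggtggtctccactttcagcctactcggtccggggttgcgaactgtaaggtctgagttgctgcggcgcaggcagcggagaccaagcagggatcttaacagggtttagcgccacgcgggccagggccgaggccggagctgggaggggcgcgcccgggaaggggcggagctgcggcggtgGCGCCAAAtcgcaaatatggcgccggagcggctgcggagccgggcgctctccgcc
GINS2 (chr16:85688905-85689204): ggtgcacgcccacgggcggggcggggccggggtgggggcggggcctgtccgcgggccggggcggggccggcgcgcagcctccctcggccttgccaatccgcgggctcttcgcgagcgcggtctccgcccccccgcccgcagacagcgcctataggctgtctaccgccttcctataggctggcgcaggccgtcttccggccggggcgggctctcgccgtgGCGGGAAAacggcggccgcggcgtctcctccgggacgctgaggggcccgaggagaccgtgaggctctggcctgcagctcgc
MCM6 holds TTTGGCGC at 2 places, beginning 152 and 90 bases before its start. In MCM3 the match begins 174 bases before the start, in POLE2 5 and in GINS2 31, and the matches of POLE2 and GINS2 read on the opposite strand. A match of letters is a description of the promoter and not a bound site.

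The letters known from TEAD sites were no commoner among called genes. GGAATG occurred in 10.9% of all matched promoters, 10.8% of those of genes that fell and 9.59% of those of genes that rose. TEAD is known to act largely from distant enhancers, which this window does not cover.

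Genes of mitosis gave no calls against siCTRL. Of 36 mitosis genes none was called, while 3.78% of all genes tested fell and 1.81% rose. NDC80, a kinetochore gene, was the 1 member with an unadjusted p under 0.05. In all 3 siYAP libraries 11 were lower and 7 higher (34.9% and 37.4% of all genes tested were). The siYAP libraries also lay below the empty vector library for all 11, and above it for none of the 7. The median log2 fold change of the mitosis list was -0.05. CDK1, the kinase that starts mitosis, had 166 CPM in siCTRL and 169, 169 and 168 CPM across the siYAP triplicate, and MKI67, a proliferation marker, had 167 CPM against 200.2, 119 and 180.1 CPM (both chosen after their values were seen). Mitosis genes were higher in the empty vector library than in siCTRL, and with the empty vector as the control 12 of the 36 were called lower, with a median of -0.78. What is said of mitosis therefore depends on the control, whereas for replication both controls gave falls.

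The promoters of the replication and mitosis lists were also described by their letters, and a link of these letters to the siYAP values was not tested. TTTGAA, the letters of the CHR element of mitotic genes, occurred in 20 of 30 matched mitosis promoters (66.7%). It occurred in 2.56% of those of the replication list, against 9.98% of all, 12.1% of those of genes that fell and 11.4% of those of genes that rose. TTTCCCGC or TTTGGCGC occurred in 6.67% of the mitosis promoters.

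**Figure D2:**
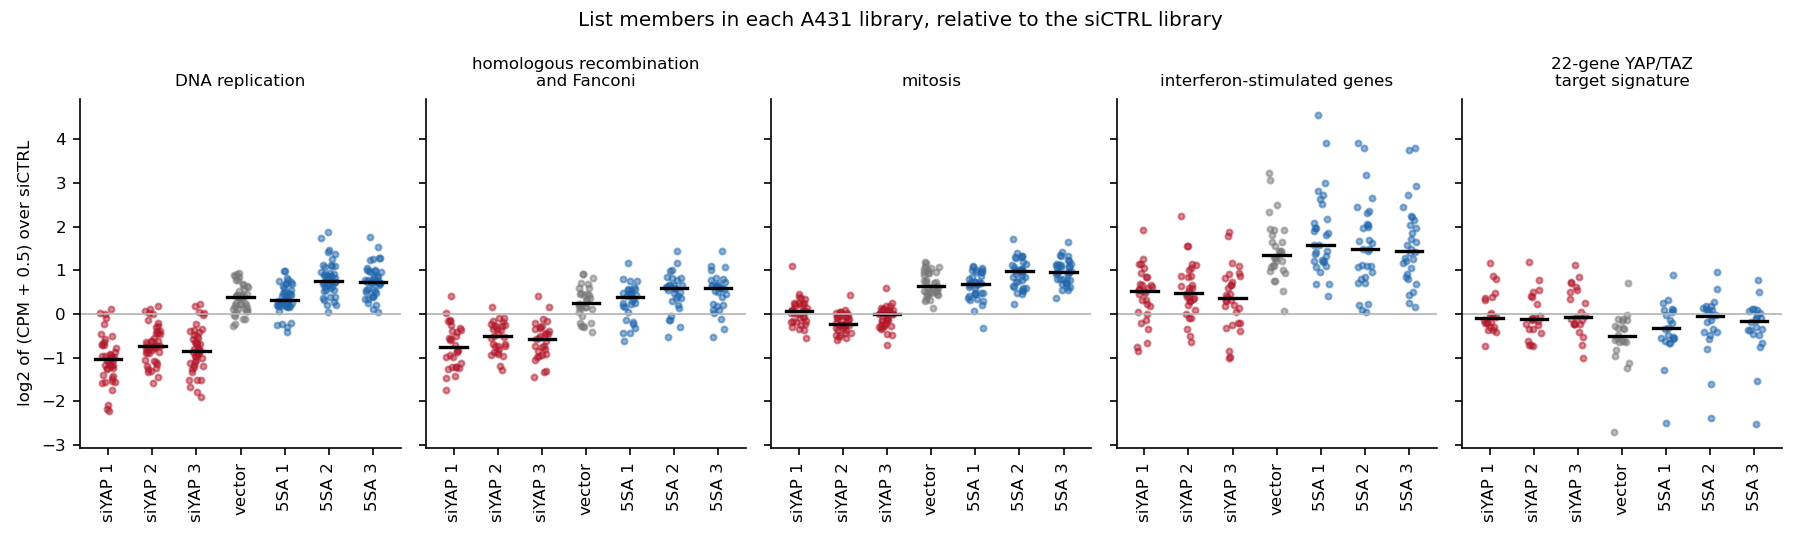
Members of 5 gene lists in each A431 library as log2 of CPM plus 0.5 over the siCTRL library, 1 point per gene and library, with the median as a black bar, siYAP in red, empty vector in grey and YAP5SA (5SA) in blue. Replication and repair genes have medians below siCTRL in the siYAP libraries and above it in the vector libraries, mitosis genes lie near siCTRL with siYAP and above it in the vector libraries, and interferon-stimulated genes lie above siCTRL with siYAP and higher still in the vector libraries.

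The supply of nucleotides fell in part. Of 18 genes 5 fell and none rose, with a median log2 fold change of -0.43, and 16 were lower in all 3 siYAP libraries. RRM2, the regulated subunit of ribonucleotide reductase, had 61.9 CPM against 17.6, 22.3 and 20.1 CPM (log2 fold change -1.63, SE 0.39, edgeR FDR = 0.0299), and its partner RRM1 had 223 CPM against 135, 137 and 137 CPM (log2 fold change -0.71, SE 0.18, edgeR FDR = 0.0381). Both genes lay below the empty vector library too. DUT and CMPK1 also fell, and the list's count was 2, 3 or 2 without replicate 1, 2 or 3.

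In the repair of DNA breaks by homologous recombination and the Fanconi pathway 12 of 30 genes fell and none rose, with a median log2 fold change of -0.56. The exonuclease EXO1 fell by 1.49 on the log2 scale (SE 0.29, edgeR FDR = 0.0124), from 26.8 CPM to 7.73, 10.7 and 10.3 CPM. The helicase gene BLM and the Fanconi gene FANCD2 fell by 1.07 and 1.06, and BRCA1, BRCA2 and CHEK1 were also among the 12. The kinase genes ATM and ATR were not called, and ATM was higher in all 3 libraries, with a log2 fold change of 0.33. Without replicate 1, 2 or 3 the count was 6, 11 or 6.

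Among genes of G1 control, E2F1, E2F2 and the cyclin gene CCNE2 had the largest called falls. Of 29 genes 7 fell (E2F2, E2F1, CCNE2, SKP2, RBL1, CDK6 and CCND1) and 1 rose. E2F1 had 27.6 CPM in siCTRL and 5.28, 13.4 and 9.59 CPM across the siYAP triplicate (log2 fold change -1.56, SE 0.40, edgeR FDR = 0.04), and E2F2 had 12.3 CPM against 3.19, 4.38 and 3.79 CPM (log2 fold change -1.70, SE 0.38, edgeR FDR = 0.0209). CCNE2, a cyclin of the G1 to S transition, had 18 CPM against 4.60, 8.07 and 5.84 CPM (log2 fold change -1.55, SE 0.39, edgeR FDR = 0.0359). In each gene all siYAP libraries lay below both controls, but all 3 genes missed the threshold without replicate 1 or replicate 3. The related cyclin CCNE1 had 5.24 CPM against 2.67, 4.24 and 3 CPM and was not called (log2 fold change -0.67, SE 0.43, edgeR FDR = 0.387).

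The kinase inhibitor gene CDKN2D was the member that rose, from 1.37 CPM to 5.15, 2.93 and 5.09 CPM (log2 fold change 1.68, SE 0.44, edgeR FDR = 0.0431). Its empty vector level of 3.67 CPM lay among the siYAP values. The retinoblastoma gene RB1 and the repressive E2F genes E2F4 and E2F6 were not called. Without replicate 1, 2 or 3 the fallen members of the G1 list numbered 1, 5 or 1.

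Genes of protein turnover and ribosome assembly gave no calls against siCTRL. In the proteasome list 27 of 34 genes were lower in all 3 siYAP libraries, against 34.9% of all genes tested. That list had a median log2 fold change of -0.19 and 1 unadjusted p under 0.05, for PSMD7 (167 CPM against 131, 131 and 133 CPM). In the ribosome biogenesis list 19 of 32 were lower in all 3, with a median of -0.14 and 3 unadjusted p under 0.05. The lowest of these belonged to WDR43, a processing factor of ribosomal RNA, with 212 CPM against 146, 153 and 143 CPM (log2 fold change -0.53, SE 0.15, edgeR FDR = 0.0614), but its empty vector level of 136 CPM lay below all 3 siYAP values. With the empty vector as the control 12 of the 34 proteasome genes were called lower, with a median of -0.50. The ribosome biogenesis list had no call with that control either, but its median turned to 0.29, and 2 of the 19 genes lay below both controls.

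**Figure D3:**
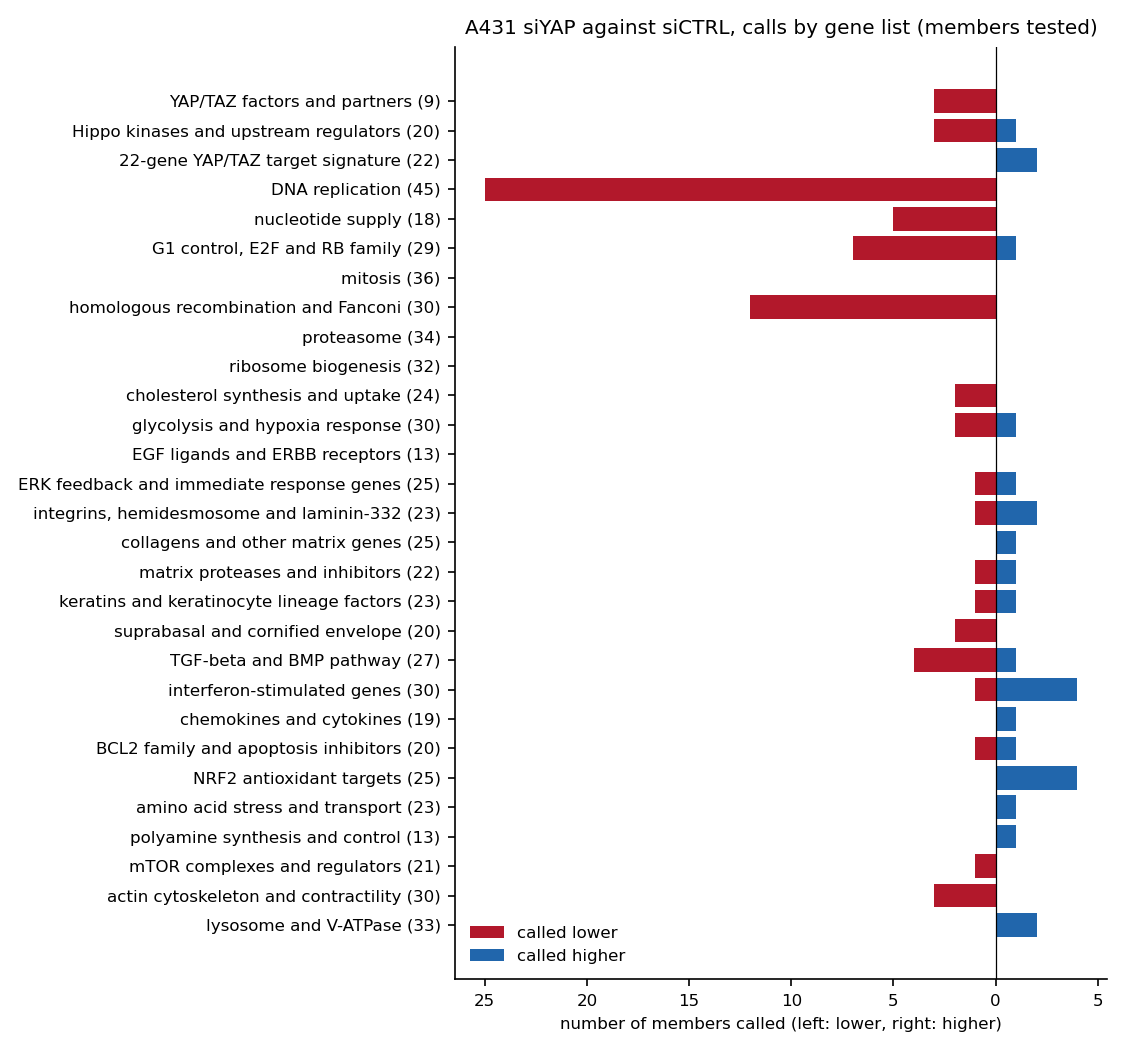
Number of members of each of 29 gene lists that fell (red, to the left) or rose (blue, to the right) with siYAP in A431 cells, with the number of members tested in brackets. DNA replication (25 fallen), homologous recombination (12) and G1 control (7) hold the most called members, and all other lists hold 5 or fewer in either direction.

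Genes known as direct YAP and TAZ targets gave no called fall. In a 22-gene signature of such targets none was called lower and 2 were called higher, against 3.78% and 1.81% of all genes tested. In all 3 siYAP libraries 11 were lower and 5 higher, and the median log2 fold change of the signature was -0.07. CYR61, which encodes a matrix-associated growth regulator, had 58.4 CPM in siCTRL and 47.4, 42.9 and 49.8 CPM after siYAP (log2 fold change -0.32, SE 0.35, edgeR FDR = 0.642). All 3 values lay below siCTRL and above the empty vector level of 24.3 CPM. CTGF was barely detected in A431 cells, with 0.049 CPM in siCTRL and 0, 0 and 0.300 CPM across the siYAP triplicate, and ANKRD1 stayed under 1 CPM in these 4 libraries, with siYAP values on both sides of siCTRL.

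The 2 members that rose went against the usual direction of the signature. NT5E, a surface enzyme that makes adenosine, had 63.9 CPM in siCTRL and 145, 147 and 139 CPM after siYAP, or 144 ± 4.57 CPM (SD, n = 3), which is 1.17 on the log2 scale (SE 0.22, edgeR FDR = 0.0103). LATS2, the Hippo kinase, had 17.8 CPM against 31.2, 25.6 and 29.7 CPM (log2 fold change 0.69, SE 0.18, edgeR FDR = 0.043). Both lay above the empty vector level as well (41.4 and 15.9 CPM), and LATS2 missed the threshold without replicate 1 or 3. With the empty vector as the control 7 of the 22 genes were called higher and none lower, with a median of 0.68. The signature was lower in the empty vector library than in siCTRL, and the direction of this list with siYAP depended on the control. The lowest log2 fold change in the list belonged to IGFBP3, at -0.81 (not called).

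AREG, an EGF receptor ligand known to respond to YAP, had 33.8 CPM in siCTRL and 34.2, 28.5 and 32.0 CPM across the siYAP triplicate, on both sides of the control (log2 fold change -0.10, SE 0.49, edgeR FDR = 0.939). None of 13 EGF ligand and ERBB receptor genes was called. Their median log2 fold change was 0.11 against siCTRL and 0.75 against the empty vector. EREG, another ligand, had 113 CPM against 216, 178 and 202 CPM (log2 fold change 0.81, SE 0.28, edgeR FDR = 0.114). The empty vector library held 16.6 CPM of AREG and 63.1 CPM of EREG, below every siYAP value of the same gene.

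Of the partners of YAP the TEAD genes were not called. TEAD1 had 250.2 CPM in siCTRL and 197, 158 and 174 CPM after siYAP, a log2 fold change of -0.50 (edgeR FDR = 0.096). The co-factor genes VGLL1 and VGLL3, whose products compete with YAP for TEAD, fell. VGLL3 had 113 CPM against 51.8, 46.4 and 52.2 CPM (log2 fold change -1.17, SE 0.13, edgeR FDR = 0.000761), and the empty vector library, at 58.5 CPM, lay close to the siYAP level. VGLL1 had 20.3 CPM against 7.0, 9.17 and 7.39 CPM (log2 fold change -1.37, SE 0.25, edgeR FDR = 0.00928), with 13.8 CPM in the empty vector library.

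Among 20 Hippo kinases and upstream regulators 3 fell and LATS2 alone rose (3.78% and 1.81% of all genes tested did). AJUBA, a LIM protein that restrains LATS, had 103 CPM in siCTRL and 41.1, 47.6 and 45.6 CPM across the siYAP triplicate (log2 fold change -1.21, SE 0.22, edgeR FDR = 0.00898). The LATS co-activator genes MOB1A and MOB1B fell by 0.77 and 0.71 on the log2 scale, and in all 3 genes the siYAP libraries lay below both controls. NF2 and LATS1 were not called.

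Integrin genes leaned upwards with few calls. Of 23 genes of integrins, hemidesmosomes and laminin-332, 17 were higher in all 3 siYAP libraries (37.4% of all genes tested were) and 4 were lower, and their median log2 fold change was 0.50, with 2 called rises and 1 called fall. Of the 17, 9 also lay above the empty vector library, and against that library the median was 0.24. ITGB4, the hemidesmosomal integrin subunit, had 119 CPM in siCTRL and 175, 218 and 267 CPM after siYAP, which is 0.89 on the log2 scale (SE 0.24, edgeR FDR = 0.0473). The siYAP values spread widely around 220.1 ± 46.4 CPM (SD, n = 3), all above the empty vector level of 161 CPM, and the call was lost without replicate 2 or 3.

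ITGB5, a vitronectin receptor subunit, had 119.9 CPM against 181, 176 and 184 CPM (log2 fold change 0.59, SE 0.13, edgeR FDR = 0.0214), above both controls. Its partner ITGAV had 519 CPM against 352, 310.3 and 315 CPM (log2 fold change -0.67, SE 0.18, edgeR FDR = 0.0426), but the empty vector level of 284 CPM lay below all 3, and against it the log2 fold change was 0.20. ITGB1, ITGA6 and ITGA3 had log2 fold changes of -0.17, -0.35 and 0.50, and ITGB2 stood at no more than 3.93 CPM in these libraries; none of them was called.

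Matrix genes leaned the same way, with 19 of 25 higher in all 3 siYAP libraries (37.4% of all genes tested were). Their list had a median log2 fold change of 0.45 and 1 call. Of the 19, 15 also lay above the empty vector library, and against that library the median was 0.72. LAMC1, a laminin chain of basement membranes, had 279 CPM in siCTRL and 522, 446 and 510.4 CPM across the siYAP triplicate (log2 fold change 0.82, SE 0.18, edgeR FDR = 0.0191), above the empty vector level of 331 CPM. Among proteases and their inhibitors TIMP1 rose by 0.83 on the log2 scale and the sheddase gene ADAM17 fell by 0.67. The siYAP range of TIMP1, 89.2 to 105 CPM, overlapped the empty vector level of 89.9 CPM.

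Of 30 genes of the actin cytoskeleton 3 fell (3.78% of all genes tested did). ACTG1, a cytoplasmic actin, had 1856 CPM in siCTRL and 881, 971 and 983 CPM after siYAP (log2 fold change -0.97, SE 0.15, edgeR FDR = 0.00393), below the empty vector level of 1483 CPM. The tropomyosin gene TPM4 and the kinase gene ROCK2 fell by 0.80 and 0.52.

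Keratinocyte identity genes were mostly not called. KRT14, a basal keratin, rose from 147 CPM to 389, 317 and 389.8 CPM (log2 fold change 1.31, SE 0.33, edgeR FDR = 0.0401), but the empty vector library held 405 CPM, and against it the log2 fold change was -0.15. Its basal partner KRT5 and the basal factor TP63 were not called. GRHL2, an epithelial transcription factor, fell by 0.49 (SE 0.12, edgeR FDR = 0.0297).

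Of 20 suprabasal and cornified envelope genes 2 fell and none rose. S100A9, a subunit of calprotectin, had 30.4 CPM against 7.69, 8 and 6.24 CPM (log2 fold change -2.05, SE 0.35, edgeR FDR = 0.00648), below the empty vector level of 24.5 CPM. S100A7, psoriasin, had 2.20 CPM against 0.189, 0.172 and 0.300 CPM (log2 fold change -3.36, SE 0.63, edgeR FDR = 0.00994), a low level at which each value rests on few reads. S100A8, the calprotectin partner, had a log2 fold change of -1.88 and was not called.

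Among 27 genes of the TGF-beta family 4 fell, all of them receptor genes. The receptor genes TGFBR2, TGFBR3 and ACVR1 were not called, with log2 fold changes of -0.29, 0.13 and 0.15. With the empty vector as the control 1 gene of the list was called lower, with both controls together none, and without replicate 1, 2 or 3 the count was 1, 1 or 0. TGFBR1 fell by 0.86 on the log2 scale (SE 0.20, edgeR FDR = 0.0248), from 40.9 CPM to 21.4, 24.0 and 22.2 CPM. BMPR2, ACVR2A and BMPR1A fell by 0.58, 0.56 and 0.49. The siYAP libraries lay below the empty vector library for all 4 genes, at 26.9 CPM for TGFBR1 and 35.0 CPM for BMPR2. The ligand BMP7 rose, from 2.79 CPM to 6.37, 5.24 and 7.99 CPM, but had 9.87 CPM in the empty vector library.

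Survival and stress genes gave a few well separated values. MCL1, a short-lived inhibitor of apoptosis, had 428 CPM in siCTRL and 209, 234 and 199 CPM across the siYAP triplicate (log2 fold change -1.0, SE 0.12, edgeR FDR = 0.000854), well below the empty vector level of 548 CPM. BCL2L2, a related inhibitor, rose by 0.69 (SE 0.12, edgeR FDR = 0.0072), from 57.7 CPM to 98.7, 88.4 and 92.8 CPM. The other 18 of 20 genes in that list were not called.

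Of 25 genes known as targets of the antioxidant factor NRF2, 4 rose (1.81% of all genes tested did) and none fell. The list had a median log2 fold change of 0.54. The aldo-keto reductase genes AKR1C1 and AKR1C2, which are near-identical neighbours that may share reads, had 5.05 and 9.40 CPM with siCTRL and 26.3 to 34.9 and 47 to 59.3 CPM with siYAP (log2 fold changes 2.58 and 2.45, edgeR FDR = 0.016 and 0.0369). ABCC2, an export pump, and OSGIN1 rose by 2.16 and 1.96. With the empty vector as the control 2 of the 25 were called lower and none higher, with a median of 0.10, and AKR1C1 had 23.3 CPM in the empty vector library. The classical targets NQO1 and GCLM had negative log2 fold changes of -0.33 and -0.29 and were not called. GPX2, a glutathione peroxidase outside the list, rose by 1.61 (SE 0.20, edgeR FDR = 0.00109), from 24.6 CPM to 84.5, 71.0 and 69.7 CPM, above the empty vector level of 55.6 CPM.

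Interferon-stimulated genes gave opposite results with the 2 controls. Of 30 genes 22 were higher in all 3 siYAP libraries than in siCTRL (37.4% of all genes tested were). The list had a median log2 fold change of 0.50, and 4 rose (MX2, IFI44L, IFIH1 and OAS1) and 1 fell (HERC6). None of the 4 that rose lay above the empty vector level in all 3 siYAP libraries. MX2, an antiviral GTPase, had 3.43 CPM in siCTRL and 14.3, 18 and 13.9 CPM after siYAP (log2 fold change 2.17, SE 0.30, edgeR FDR = 0.00202), but 21.7 CPM in the empty vector library. OAS1 had 35.5 CPM against 68.9, 74.4 and 59.2 CPM, and 138 CPM with the empty vector. Against the empty vector the median of the list was -0.94, with 18 genes called lower and none higher. The siCTRL library had the lowest level of the 8 A431 libraries in MX2, IFI44L and OAS1, and the part of that library in these rises was not tested.

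Few metabolic genes were called against siCTRL. Of 30 genes of glycolysis and the hypoxia response 2 fell and 1 rose, with a median log2 fold change of 0.02, whereas with the empty vector as the control 12 were called lower and 1 higher, with a median of -0.43. LDHA, lactate dehydrogenase, fell by 0.89 on the log2 scale (SE 0.21, edgeR FDR = 0.0264), from 887 CPM to 502, 487 and 450.0 CPM. PDK1, here the pyruvate dehydrogenase kinase gene, fell by 1.31 (SE 0.23, edgeR FDR = 0.00678). The phosphofructokinase PFKM rose by 0.71. Of 24 cholesterol genes the regulator SREBF2 and the enzyme NSDHL fell, by 0.83 and 0.68. EIF4EBP2, a repressor of translation under mTOR, fell by 0.99, while the mTOR scaffold gene RPTOR had 19.9 CPM against 14.8, 20.8 and 21.9 CPM, on both sides of the control.

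In polyamine metabolism the oxidase SMOX was the sole call of 13 genes, rising by 0.90. ODC1, the first enzyme of polyamine synthesis, had 77.9 CPM in siCTRL and 46.7, 46.5 and 43.4 CPM across the siYAP triplicate and was not called (log2 fold change -0.77, SE 0.45, edgeR FDR = 0.342). The empty vector level of ODC1, 48.3 CPM, lay close to the siYAP values. AZIN2, an antizyme inhibitor, had 2.55 CPM against 5.06, 5.31 and 6.84 CPM (log2 fold change 1.17, SE 0.67, edgeR FDR = 0.334).

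Among 25 ERK feedback and immediate response genes only EGR1 and DUSP1 were called, while 3.78% of all genes tested fell and 1.81% rose. In all 3 siYAP libraries 12 were higher and 6 lower (37.4% and 34.9% of all genes tested were). Their median log2 fold change was 0.09 against siCTRL and 0.64 against the empty vector. EGR1 fell from 48.1 CPM to 16.9, 15.7 and 20.4 CPM (log2 fold change -1.45, SE 0.32, edgeR FDR = 0.021), and the phosphatase gene DUSP1 rose from 4.36 CPM to 18, 14.2 and 16.5 CPM (log2 fold change 1.90, SE 0.40, edgeR FDR = 0.0157). Both lay beyond the empty vector library, at 40.1 and 5.10 CPM. CEBPB, the lysosomal genes LIPA and CTSL and no others were called in the lists of amino acid stress and of lysosomes, with rises of 0.87, 0.62 and 0.74, and for CEBPB and CTSL the empty vector level (63.6 and 175 CPM) was not below the siYAP libraries.

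The lowest p values belonged to genes outside these lists. PLOD2, which hydroxylates lysines of collagen, had 211 CPM in siCTRL and 34.7, 43.1 and 35.9 CPM after siYAP, or 37.9 ± 4.54 CPM (SD, n = 3). The other 4 A431 libraries held 203 to 236 CPM, so that the siYAP libraries stood apart from all of them. The log2 fold change was -2.48 (SE 0.16, edgeR FDR = 1.73e-05). The iron transporter gene SLC11A2, the kinase genes UHMK1 and MAP4K5 and the polarity gene LIN7C followed, with log2 fold changes of -1.42, -1.55, -1.35 and -1.16 and edgeR FDRs of 0.00022 to 0.000293. UHMK1 had 402 CPM with siCTRL, 614 CPM with the empty vector and 130.4, 148 and 132 CPM with siYAP.

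For several of the 10 largest falls the empty vector level, too, lay far below siCTRL. PIGR, the receptor that carries immunoglobulins across epithelia, had 74.3 CPM in siCTRL and 7.0, 12.2 and 6.69 CPM across the siYAP triplicate (log2 fold change -3.10, SE 0.36, edgeR FDR = 0.000761), while the empty vector library held 12.8 CPM. CP, ceruloplasmin, had 26.6 CPM against 2.80, 4.55 and 2.95 CPM, and 2.53 CPM with the empty vector, so that its log2 fold change was -2.95 against siCTRL and 0.44 against the empty vector. In both genes siCTRL was the highest of the 8 A431 libraries. CCL28, a mucosal chemokine, and TMEM52B behaved likewise, with 10.3 and 5.44 CPM in siCTRL, at most 1.97 and 0.949 CPM with siYAP, and 3.12 and 1.38 CPM with the empty vector.

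Further large falls rest on few reads. FUT9, a fucosyltransferase, had 7 counts with siCTRL and 0 in each siYAP library, and LFNG, a fringe glycosyltransferase, had 8 counts against 2, 1 and 1. The readthrough gene DYX1C1-CCPG1 and the clustered protocadherin PCDHGB5 share sequence with their neighbours, and their falls are uncertain for that reason. Such genes passed because the minimum levels are means over all 16 libraries, and LFNG had 5.41 CPM in the HaCaT siCTRL library.

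The largest rises were mostly of genes with no count in the siCTRL library. A count of 0 allows up to 3 counts, and against that floor BLOC1S5-TXNDC5 was at least 87.4-fold higher, SMG1P5 78.8-fold, LY75-CD302 44.1-fold, NPIPA7 37.8-fold, CXorf49 28.7-fold, ACPP 7.4-fold and TG 1.9-fold. Of these, BLOC1S5-TXNDC5 and LY75-CD302 are readthrough genes and SMG1P5 and NPIPA7 belong to multicopy families, so that reads could move between copies and the values are uncertain. The empty vector level of CXorf49, 10.4 CPM, lay above the siYAP range of 3.78 to 4.72 CPM. That of ACPP, 1.42 CPM, and that of LY75-CD302, 4.41 CPM, lay within the siYAP range, which for LY75-CD302 ran from 2.94 to 15.5 CPM. EIF3C has a near-identical copy and is uncertain as well, and had 1.76 CPM with siCTRL, 77.1, 100.1 and 89.1 CPM with siYAP and 30.1 CPM with the empty vector.

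Single-copy genes rose too. SPP1, osteopontin, a secreted integrin ligand, had 5.53 CPM in siCTRL and 52.9, 39.5 and 38.8 CPM after siYAP, or 43.7 ± 7.94 CPM (SD, n = 3), which is 2.98 on the log2 scale (SE 0.31, edgeR FDR = 0.00185). The other 4 A431 libraries lay between 8.13 and 10.4 CPM, far under the siYAP values. IL6, a cytokine, had 2 counts with siCTRL and 141, 59 and 39 with siYAP, a depth-scaled ratio of 25.3 with a counting interval of 6.92 to 210.0. SERPINB7, a protease inhibitor of keratinocytes, had 1 count against 154, 43 and 63, a ratio of 55.0 with an interval of 9.78 to 2180. Both intervals cover counting error only, and the empty vector levels of 0.872 and 0.597 CPM lay between siCTRL and siYAP.

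The 3′ UTRs of the called genes were searched for an 8-base site, CTTCTTAA, and the 7-base sites it contains, CTTCTTA and TTCTTAA. These letters were chosen with earlier results of the same data known, so their counts are a description and support nothing. A 3′ UTR of at least 50 bases was available from GENCODE release 29 (GRCh38) for 10605 genes with a logCPM above 1. The windows that follow are from the fallen genes with the largest falls that hold the 8-base site, which is in capitals, each of 30 bases and written in the sense of the transcript.
FUT9 (chr6:96208382-96208411, plus strand): attttgagaaaCTTCTTAAcaattacaatc
STEAP4 (chr7:88273970-88273999, minus strand): ccactgcaactCTTCTTAAaaacattttta
RASEF (chr9:82980331-82980360, minus strand): ttaaagagaagCTTCTTAAagctctgtatg
RRM2 (chr2:10130114-10130143, plus strand): agggcaaggagCTTCTTAAgttaaatcact
PRELID2 (chr5:145759302-145759331, minus strand): ttgaaattcatCTTCTTAAgataaaaatca
UHMK1 (chr1:162528797-162528826, plus strand): ttcctttataaCTTCTTAAcagtgtcaaaa
The bases on either side of the site differ between the windows. RRM2, of nucleotide supply, and UHMK1 carry 1 such site each, and FUT9 carries 2. Counted with those inside the 8-base site, the 7-base sites numbered 3 in RRM2, 10 in UHMK1 and 6 in FUT9. RASEF, a small GTPase, had 39.8 CPM in siCTRL and 10.2, 12.3 and 10.1 CPM across the siYAP triplicate, and STEAP4, a metalloreductase, had 63.8 CPM against 15.9, 15.5 and 15.7 CPM.

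Of the fallen genes with such a UTR 283 of 515 (55.0%) held a 7-base or 8-base site, against 26.2% of all 10605 and 45 of 236 (19.1%) of the risen ones. For the 8-base site the shares were 16.3%, 4.69% and 2.97%. Read the other way, 16.9% of the 497 genes with the 8-base site fell, against 8.72% of the 2283 genes whose UTR held just a 7-base site and 2.96% of the 7825 whose UTR held none, while 1.41%, 1.66% and 2.44% rose. The UTRs differed in more than the site. Their median length was 3000 bases in the first class, 2540 in the second and 702 in the third, with a GC content of 37.5%, 37.6% and 44.7%, and the part of length and composition was not tested here.

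Against siCTRL the order of the classes held in each siYAP library. The median log2 ratio to siCTRL of genes with the 8-base site was -0.22, -0.27 and -0.25 in replicates 1, 2 and 3, and that of genes with neither was 0.02, 0.04 and 0.04. In the empty vector library, which received no siRNA, genes with the 8-base site had a median of -0.10. Those with a 7-base site only had the same, -0.10, and those with neither had 0.03. Set against the empty vector, the 8-base class stood at -0.11, -0.15 and -0.13 in the siYAP libraries. The class with a 7-base site only stood at 0.028, -0.011 and -0.010, and genes with neither at -0.014, 0.015 and 0.015. With that control the 7-base class thus lay close to genes with neither, and above them in replicate 1. Of the 45 replication genes 6 held a site of either length (13.3%, against 26.2% of all), and so did 5 of the 25 that fell.

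**Figure D4:**
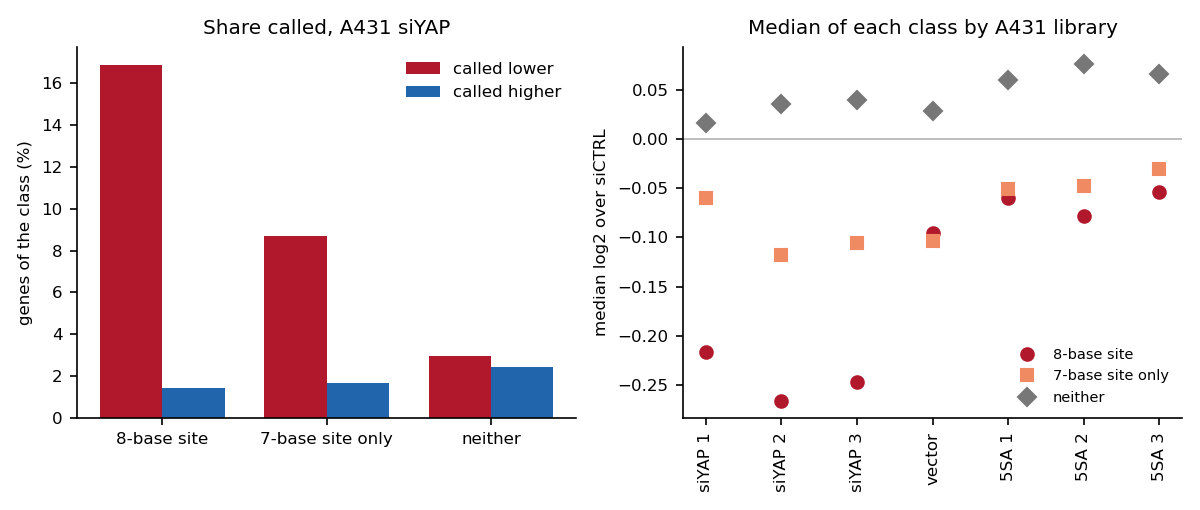
Left, percentage of genes that fell (red) or rose (blue) with siYAP among 497 genes with the 8-base site, 2283 with a 7-base site only and 7825 with neither, with bars from 0. Right, median log2 ratio to siCTRL of each class in each of the other 7 A431 libraries, in which the 8-base class is lowest in the siYAP libraries (-0.22 to -0.27) and lies near the 7-base class in the empty vector and YAP5SA libraries.

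The same knockdown in HaCaT cells had its own siCTRL library and shares no sample with that in A431 cells. There 484 genes (3.3%) fell and 348 (2.37%) rose. Of the 555 genes that fell in A431 cells, 468 had a negative log2 fold change in HaCaT cells, 162 fell there too and 1 rose, and their median log2 fold change was -0.83 in A431 and -0.40 in HaCaT cells. Of the 266 that rose, 220 had a positive value in HaCaT cells, 66 rose there and 2 fell, with medians of 1.01 and 0.43. Over all genes that were lower in all 3 A431 siYAP libraries 3406 of 5121 had a negative value in HaCaT cells, and 3712 of 5492 of those that were higher had a positive one. The genes were picked on their A431 values, which by itself makes the A431 median the larger.

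PLOD2 fell in both lines, with log2 fold changes of -2.48 in A431 and -2.82 in HaCaT cells, as did MCL1, ACTG1, SKP2, CDC42 and MOB1A (SKP2 and CDC42 were chosen after their values were seen). CDC42, a small GTPase of cell polarity, had 468 CPM in siCTRL and 225, 220.4 and 205 CPM after siYAP in A431 cells. KRT14 and ITGB5 rose in both.

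In HaCaT cells 2 of the 45 replication genes fell, with a list median of -0.32 beside -0.88 in A431 cells. Other lists had lower medians in HaCaT cells than replication, so that the order of the lists differed between the lines. These medians were -0.556 for mitosis, -0.573 for nucleotide supply and -0.555 for ribosome biogenesis, beside -0.0509, -0.431 and -0.141 in A431 cells. MCM6 had a log2 fold change of -0.42 in HaCaT cells and PCNA of -0.32, neither called. The difference between the lines was tested gene by gene in the same model, and no replication gene was called for it, so the larger fall in A431 cells is not established gene by gene.

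The test of the difference called 25 genes (0.17%), of which 18 were lower in A431 than in HaCaT cells and 7 higher. VGLL3 fell in A431 cells (log2 fold change -1.17) and not in HaCaT cells (0.41), a difference of -1.58 (SE 0.20, edgeR FDR = 0.0157). GPR115, an adhesion receptor gene, fell in A431 and rose in HaCaT cells (log2 fold changes -0.90 and 1.87), with 19.2 CPM against 10.1, 11.8 and 8.94 CPM in A431 cells. TBC1D2B, a regulator of Rab GTPases, had 74.6 CPM against 35.3, 39.8 and 38.8 CPM in A431 cells (log2 fold change -0.97, and 0.25 in HaCaT cells). LINC01468 was not called in A431 cells, with 30.3 CPM against 27.6, 33.7 and 31.4 CPM, and rose in HaCaT cells by 2.02.

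**Figure D5:**
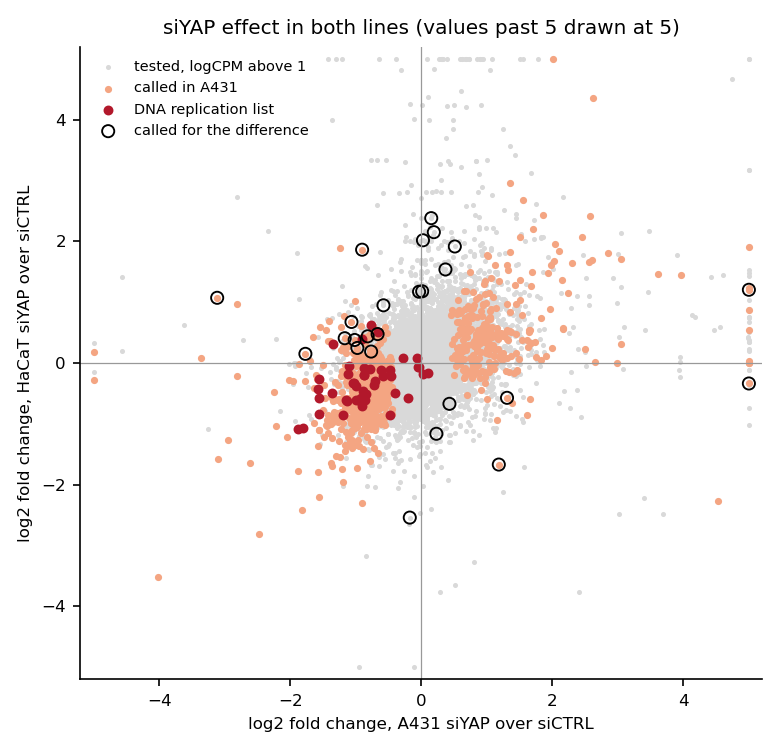
Log2 fold change of siYAP over siCTRL in A431 cells (horizontal) against HaCaT cells (vertical), 1 point per tested gene with a logCPM above 1, values past 5 drawn at 5, with genes called in A431 cells in orange, the 45 replication genes in red and the 25 genes called for the difference between lines circled. The replication genes lie to the left of 0 in A431 cells, with a median of -0.88, and spread closer to 0 in HaCaT cells, with a median of -0.32.

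Active YAP was also expressed in the same line. With YAP5SA against its own empty vector control, 42 of the 45 replication genes had a positive log2 fold change, with a median of 0.32 beside 0.02 over all genes tested. Lists without a called fall with siYAP moved alike, with a positive value for 32 of 32 ribosome biogenesis genes (median 0.38), 33 of 34 proteasome genes (0.29) and 32 of 36 mitosis genes (0.15). The share of all tested genes with a positive value was not counted, and every value here rests on the single empty vector library. PCNA had 304, 450.1 and 449 CPM with YAP5SA and 300.5 CPM with the empty vector, and MCM6 had 116, 160.0 and 157 CPM against 109.6 CPM. In both genes replicate 1 of YAP5SA lay at the control level and the others above it, and neither gene was called. YAP1 itself had 1495, 3245 and 2940 CPM with YAP5SA against 124 CPM with the empty vector (log2 fold change 4.36). It was not called in this contrast either, so that the lack of a call says little about PCNA and MCM6.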

How the data were processed

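The authors deposited 1 table of RSEM estimated counts, in read pairs per gene symbol, for 16 libraries; these values were neither scaled between libraries nor filtered. The submitters' processing notes name RSEM 1.2.11, edgeR and hg19, and reads were trimmed and mapped to RefSeq gene models. Since genes are given by symbol, no positions come from the table. Samples were grouped by their labels into 8 groups, and every library column was used.

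Estimated counts, rounded to whole numbers, were passed to edgeR 4.0.16, run under R 4.3.3, with DESeq2 1.42.0 as an alternative. Tables and plots were made with pandas 2.3.3, matplotlib 3.10.9, numpy 2.4.6 and scipy 1.17.1 under Python 3.11.15. Of 26229 listed genes, 14673 had a mean over 10 counts per library and were tested, of which 12240 had a logCPM above 1. TMM factors ranged from 0.9135 to 1.074. A single fit of all groups served the quasi-likelihood F tests of edgeR, with 8 residual degrees of freedom from the treated triplicates and a prior count of 0.125, and adjustment followed Benjamini-Hochberg (FDR). The biological coefficient of variation was 0.174. The standard error is the log2 fold change over the root of F. The contrasts were siYAP minus siCTRL in A431 cells, the same in HaCaT cells, and the difference of the 2. Code was tested on simulated data. Counts of each pair of siYAP replicates differed by more than sampling noise (chi-square per degree of freedom 13.8 to 27.4), so none was counted as a duplicate.

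Library totals of the 4 A431 siRNA libraries were 19423531 to 46791673, and a count of 0 allows up to 3 counts, or 0.0641 to 0.154 CPM; this limit covers counting error only. Symbols that read as dates (28) or occur more than once (4) stayed in totals and tests, and none is named.

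The members and gene lists were chosen with earlier results of these data known. Genes named by rule were YAP1, WWTR1 and EGFR, those the study names around its RNA-seq, the 10 largest falls and rises and 5 lowest p values in each direction among called genes, up to 4 called members of each list by size (2 of lowest p where none was called), and up to 5 genes of lowest p for the difference between lines. Others named as list members were chosen after their values were seen. Lists are described by counts and medians with no set test. Promoters (RefSeq, GRCh38.p14) were searched on both strands and 3′ UTRs (GENCODE release 29, GRCh38) on the sense strand, in the matched transcript of 12630 of 14654 tested genes (86.2%), and no match depends on the build of the counts. Alternatives were other size factors, filters, call rules, libraries in the fit and controls, DESeq2, and each siYAP library left out in turn.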

Additional observations from a re-analysis of the deposited data

Results flagged for a closer look

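The effect of siYAP differed between A431 and HaCaT cells for 7 of the genes named here, by the test of the difference itself in edgeR's quasi-likelihood model. The difference, as the log2 fold change in A431 minus that in HaCaT cells, was -1.58 for VGLL3, -1.99 for LINC01468, -2.77 for GPR115 and -1.22 for TBC1D2B. Each of these 4 is measured well above the limit that a count of 0 allows in A431 cells. For LINC01468 the change lay in HaCaT cells, and for VGLL3 and TBC1D2B in A431 cells. The VGLL3 value rests on the single A431 siCTRL library, at 113 CPM, while the 4 A431 libraries without siRNA held 52.2 to 58.5 CPM and the siYAP libraries 46.4 to 52.2 CPM. TBC1D2B had 74.6 CPM in that control, 51.0 to 54.4 CPM without siRNA and 35.3 to 39.8 CPM with siYAP.

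The other 3 rest on few or no reads on one side. LFNG differed by -4.19, with 8 counts in the A431 siCTRL library and 2, 1 and 1 with siYAP. NPIPA7 and SMG1P5 differed by 10.68 and 10.13, with 0 counts in the A431 siCTRL library, and the fitted size of such a difference depends on the prior count. Both belong to multicopy families, and their values are uncertain.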

How the results depend on the processing

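The 555 falls and 266 rises with siYAP in A431 cells became 843 and 554 with DESeq2, 1480 and 891 in a fit of the 4 A431 siRNA libraries alone, 1015 and 565 with the empty vector in place of siCTRL, and 987 and 481 with siCTRL and the empty vector of A431 cells as 2 controls. They were 167 and 136 when a size of at least 1 on the log2 scale was also required. With such a pair of controls in both lines, an alternative chosen after seeing the data, 156 fell and 42 rose. The cause of these shifts was not tested. Leaving out 1 siYAP library, which by construction leaves fewer samples, gave 241 to 385 falls and 90 to 157 rises. RLE size factors, FDR alone, other filters and the 8 A431 libraries alone kept both counts within 1.5 times, as did the requirement, also added later, that siYAP lie beyond both controls (501 and 190). The 25 genes called for the difference between lines became 280 with DESeq2, 13 with RLE factors and 6 to 8 without 1 library. With the empty vector in place of siCTRL the log2 fold change turned its sign for ACPP (-0.50), BMP7 (-0.60), CEBPB (-0.18), CTSL (-0.0704), CXorf49 (-1.26), IFI44L (-0.59), KRT14 (-0.15), MX2 (-0.49), OAS1 (-1.03), CP (0.44) and ITGAV (0.20). With 2 controls it turned for CXorf49 (-0.27) and OAS1 (-0.36), in A431 cells alone and in both lines. The other settings turned no named gene. Leaving out any 1 of the 3 took away the call of AKR1C2, BLOC1S5-TXNDC5, BMPR2, CEBPB, FUT9, IFIH1, IL6, ITGAV, KRT14, LDHA, LIPA, LY75-CD302, MOB1B, NSDHL, OAS1, OSGIN1, PFKM, ROCK2, RRM1, RRM2, SMOX, SREBF2, TG and TIMP1. The call was lost without replicate 1 and without replicate 3 for ADAM17, BLM, BMP7, CCNE2, CDKN2D, CTSL, E2F1, E2F2, GPR115, ITGB5, LAMC1, LATS2 and TGFBR1. It was lost without replicate 1 for ACPP. It was lost without replicate 1 or 2 for DYX1C1-CCPG1 and EGR1. It was lost without replicate 2 or 3 for ACVR2A, GRHL2 and ITGB4. It was lost without replicate 3 for PCDHGB5. No paired analysis was possible because siYAP and siCTRL of A431 cells share only replicate number 1. With a single control library and 8 residual degrees of freedom, the absence of a call does not show that a gene did not change.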
